A study of Cucumis sativus with 11 samples.

Results

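The comparison set 3 libraries of cucumber leaves treated with salt and silicon against 3 libraries of leaves treated with salt alone, 6 of the 11 libraries in the series. Cucumis sativus seedlings (cultivar JinYou 1) were kept in hydroponic culture, and the question was what added silicon changes in the transcriptome of salt-stressed leaves. The salt group received 75 mM sodium chloride. The salt plus silicon group received the same 75 mM sodium chloride together with 0.3 mM silicon, given as sodium silicate. Both were sampled after 3 days as young, fully expanded leaves, 3 leaves combined per replicate, so that each value is a mean over pooled leaves. Control leaves (3 libraries, neither addition) and silicon leaves (2 libraries, 0.3 mM silicon without salt) are used below to place results. They also enter the main fit, where they help set the spread and so the calls, and they are compared with each other. Of 20165 listed genes, 16606 (82.4%) had an RPKM of 1 or more in at least 2 of the 6 libraries and were tested. RPKM is a read number scaled for gene length and for how many reads the library had mapped.

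Salt harms leaves both by lowering the water potential around the roots and by letting sodium and chloride build up in the tissue. Plants take up silicon as silicic acid, in many species through channels of the aquaporin family and then by efflux transporters, and deposit it as hydrated silica in the walls of leaf cells. Cucumber is among the dicots that accumulate silicon, and silicon feeding is known to ease salt stress in it. RNA from whole leaves mixes mesophyll, epidermis and veins, so fewer cells of a type and less RNA per cell cannot be told apart here. The 20165 gene IDs were looked up among 23999 RefSeq genes of cucumber and 0 were found there, so genes are given by ID, without a name, role or sequence. For the same reason, leaf marker genes and pathway lists were not analysed here.

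The distances between salt and salt plus silicon libraries lay within the range of distances among salt libraries, a range set by salt 2. For each pair of libraries, the difference in log2(RPKM + 1) was taken for every tested gene, and its SD over genes was used as a distance. The 9 pairs that crossed the treatments had distances between 0.695 and 0.866, with a mean of 0.771. The 3 pairs within salt plus silicon ran from 0.678 to 0.747, and the 3 pairs within salt from 0.689 to 0.913. Salt 2 took part in both of the longest pairs within salt, and the remaining pair, salt 1 and salt 3, was at 0.689. Without salt 2, the 6 pairs that crossed the treatments ran from 0.695 to 0.866 with a mean of 0.754, all above that salt pair, while the mean within salt plus silicon was 0.713. On the first principal component of the 6 libraries, which held 32.7% of the variance, salt 2 lay at 67.5, salt 1 and salt 3 at -43.8 and -35.7, and the salt plus silicon libraries between -14.9 and 13.6. No salt plus silicon library lay outside the salt libraries on that axis. On the second component (23.1%) the groups overlapped as well, with salt from -41.8 to 5.40 and salt plus silicon from -7.98 to 53.3.

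**Figure D1:**
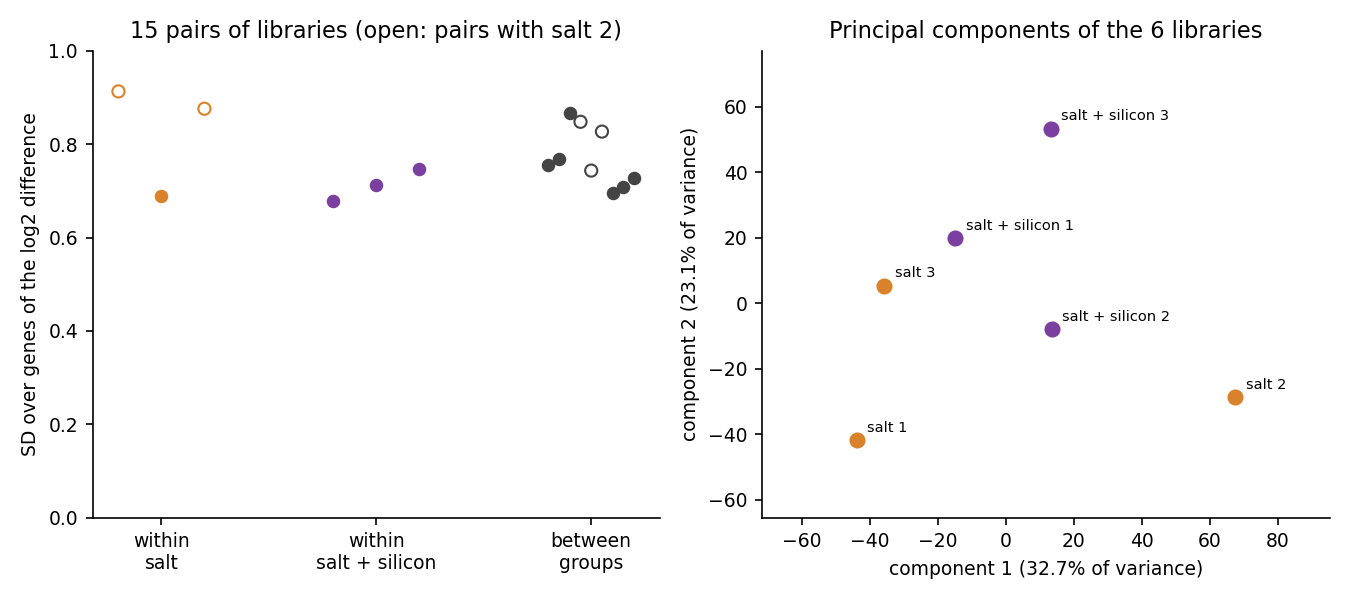
Left, the SD over 16606 genes of the log2(RPKM + 1) difference for each of 15 pairs of libraries, by kind of pair, with open points for pairs that include salt 2. Right, the 6 libraries on the first and second principal components. The 9 pairs between treatments (0.695 to 0.866) lie in the range of the pairs within salt (0.689 to 0.913).

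Salt 2 stood apart from the other salt libraries. In it, 1631 genes were 2-fold or more above or below both other salt libraries, 1100 of them above and 531 below. The same count was 593 for salt 1 and 494 for salt 3, and between 421 and 587 for the salt plus silicon libraries. The SD within a group was lower in salt plus silicon than in salt for 10621 of 16606 genes (64.0%), with a median SD of 0.232 against 0.304 on the log2(RPKM + 1) scale, a comparison that includes salt 2. The summaries of whole libraries were close. The 100 highest genes held 35.8% ± 1.72 of the summed RPKM in salt libraries, against 34.9% ± 1.88 where silicon was added (SD, n = 3 each, exact two-sided permutation p = 0.7). The sign of that small difference turned without salt 3 (0.125 percentage points) or without salt plus silicon 3 (0.129). The number of genes listed at 0 was 2140 ± 54.8 in salt and 2086 ± 172 with silicon added (SD, n = 3 each, exact two-sided permutation p = 0.8). The difference of -54.3 genes ran from -153 without salt plus silicon 1, when the groups no longer overlapped, to -2.33 without salt plus silicon 2. With 3 libraries a side the smallest p this test allows is 0.1.

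Between salt plus silicon and salt, 3 of 16606 genes passed the threshold, 2 higher and 1 lower. Each of them was listed at 0 throughout 1 of the treatments. The share called was 0.0181% of the genes tested, 0.012% higher and 0.00602% lower. The test was a two-sided limma fit of log2(RPKM + 1) in all 11 libraries, and its p-values were adjusted by the Benjamini-Hochberg method across the tested genes, with a threshold of 0.05. Csa6G116670 was at 267, 328 and 156 RPKM in salt 1 to salt 3 and was listed at 0 in each salt plus silicon library (limma adjusted p = 7.42e-07). Csa1G050120 had a listed 0 in every salt library and 37.9, 23.3 and 31.5 RPKM in salt plus silicon 1 to 3 (adjusted p = 6.06e-06). Csa6G358140 also had a listed 0 in every salt library, and 14.5, 7.77 and 8.64 RPKM in salt plus silicon 1 to 3 (limma adjusted p = 0.000504). In none of these genes did the groups overlap, and all of the 5 control and silicon libraries were listed at 0, so each gene had values in 1 treatment only. Each gene therefore passed the filter through that treatment alone. Groups at 0 add no spread, so its own spread in the fit also came from that treatment alone. They still count as degrees of freedom, which lowers the fitted spread and the p-values. With the 6 libraries fitted alone, the limma adjusted p of the 3 genes was 0.000211, 0.000536 and 0.0139, in the order above. No fold change is given against a group at 0, and a listed 0 can be a failed estimate of the level. The call for Csa6G358140 was lost under a filter of 5 RPKM (adjusted p = 0.213, with a range over the alternatives from 0.000131 to 0.213).

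**Figure D2:**
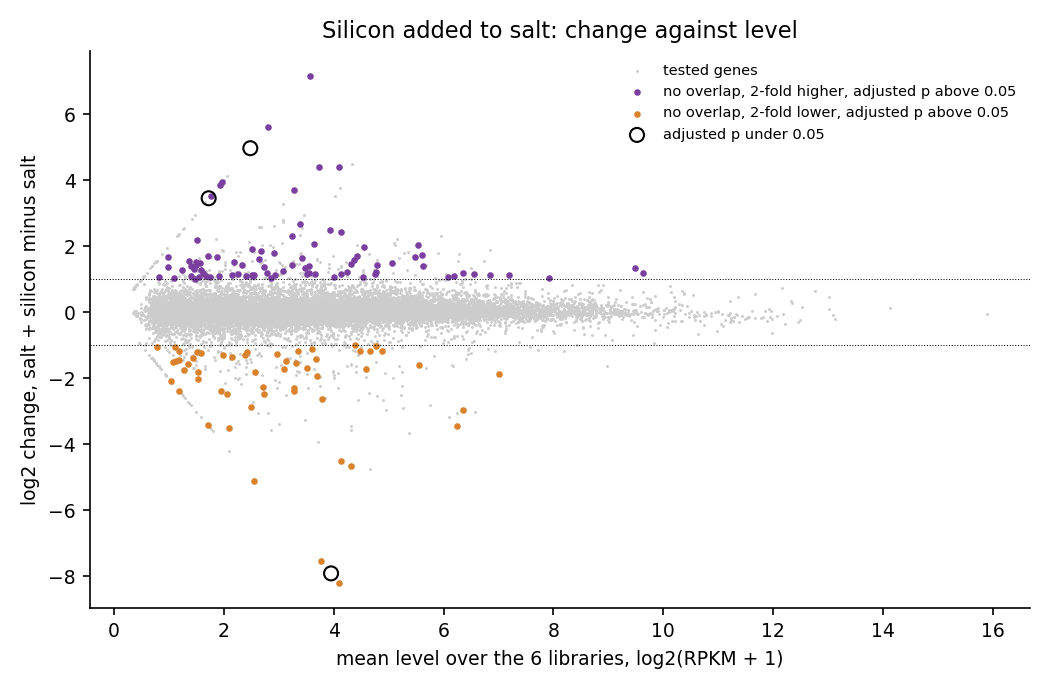
The log2 change, salt plus silicon minus salt, against the mean level over the 6 libraries, both on the log2(RPKM + 1) scale, for 16606 genes. Circles mark the 3 genes past the threshold, whose plotted size depends on the pseudocount because 1 group is at 0, and coloured points mark genes with no overlap and a 2-fold difference, of which there were 86 higher and 55 lower with the circled genes included.

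Genes listed at 0 throughout 1 treatment were few. There were 14 of them, 7 at 0 in every salt library and at 1 RPKM or more in every salt plus silicon library, and 7 the other way round. For 11 of the 14, at least 1 of the 5 control and silicon libraries was above 0, and in 8 the control libraries themselves were divided between 0 and a value above 0. None of those 11 passed in the fit of 11 libraries, where the control and silicon values enter the spread. Such switching was also common among replicates. In 258 genes 1 salt library was at 0 while another salt library reached 10 RPKM or more, and the same held for 265 genes in salt plus silicon and 334 in control. Of 162 genes with exactly 3 of the 6 libraries at 0 and the other 3 at 1 RPKM or more, 148 had their zeros spread over both treatments and 14 (8.64%) had them in 1 treatment. For zeros placed at random over the 6 libraries, the share in 1 treatment would be 0.1. The part that this switching plays in the 3 calls was not tested. With the 6 libraries fitted alone, 11 genes passed (0.0662%), 6 higher (0.0361%) and 5 lower (0.0301%), and all 11 were among these 14. No gene above 0 in all 6 libraries passed in either fit, of 15777 such genes. At an unadjusted limma p under 0.05 there were 393 of them in the fit of 11 libraries and 437 in the fit of 6, and the other fits gave at most 2 calls among them, without salt 3.

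Beyond these calls, the differences were small. The middle 50% of tested genes lay between -0.11 and 0.18 in log2 change and the middle 90% between -0.46 and 0.57, with a median of 0.03. By the means, 258 genes (1.55%) were 2-fold or more higher with silicon and 251 (1.51%) 2-fold or more lower. Without adjustment, 479 genes (2.88%) had a limma p under 0.05, 327 higher (1.97%) and 152 lower (0.915%). With no difference between the groups, a share of 0.05 would be expected under that p. For values without overlap the expected share would be 0.1, the smallest p of the exact test. In 1060 genes (6.38%) the 3 salt plus silicon values did not overlap the 3 salt values, 652 higher (3.93%) and 408 lower (2.46%). That balance depended on scaling, since median-of-ratios scaling turned it to 551 higher and 616 lower, and quantile normalization to 538 and 651. A 2-fold difference without overlap was seen in 0.849% of genes, 86 higher (0.518%) and 55 lower (0.331%), which was 82 and 59, then 82 and 67, under the same scalings.

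Of these, 61 higher and 24 lower genes were above 0 in all 6 libraries, and none passed the threshold. Csa7G430820 was at 9.77, 12.2 and 10.5 RPKM in salt 1 to 3 and at 29.3, 21.9 and 25.5 in salt plus silicon 1 to 3. Every salt plus silicon library was above every salt library and above the control libraries, which ran from 11.6 to 18.8 RPKM. The log2 change was 1.16 ± 0.23 (SE, limma adjusted p = 0.876). Csa2G190740 was at 53.04, 86.0 and 100.3 RPKM in salt and at 183, 141 and 193 in salt plus silicon. Salt plus silicon lay above salt in each library but below control, whose libraries were close together at 205, 211 and 210.1 RPKM. Its log2 change was 1.14 ± 0.23 (SE, limma adjusted p = 0.876).

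Among the lower genes, Csa3G132580 was at 23.8, 14.6 and 27.9 RPKM in salt and at 2.14, 1.88 and 7.52 in salt plus silicon, a log2 change of -2.40 ± 0.45 (SE, limma adjusted p = 0.876). The first and second salt plus silicon libraries were close to the control range of 1.47 to 1.97 RPKM, and the third was higher. Csa1G062380 was at 349, 102 and 337 RPKM in salt and at 35.5, 13.3 and 47.2 in salt plus silicon, a log2 change of -2.97 ± 0.60 (SE, limma adjusted p = 0.876). Salt 2 was the lowest of the salt libraries and still above every salt plus silicon library, while the control libraries lay far lower, between 2.98 and 5.52 RPKM. These 4 genes are the 2 higher and the 2 lower with the smallest p among genes of this kind. With the 6 libraries fitted alone their adjusted p ran from 0.421 for Csa7G430820 to 1.00.

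**Figure D3:**
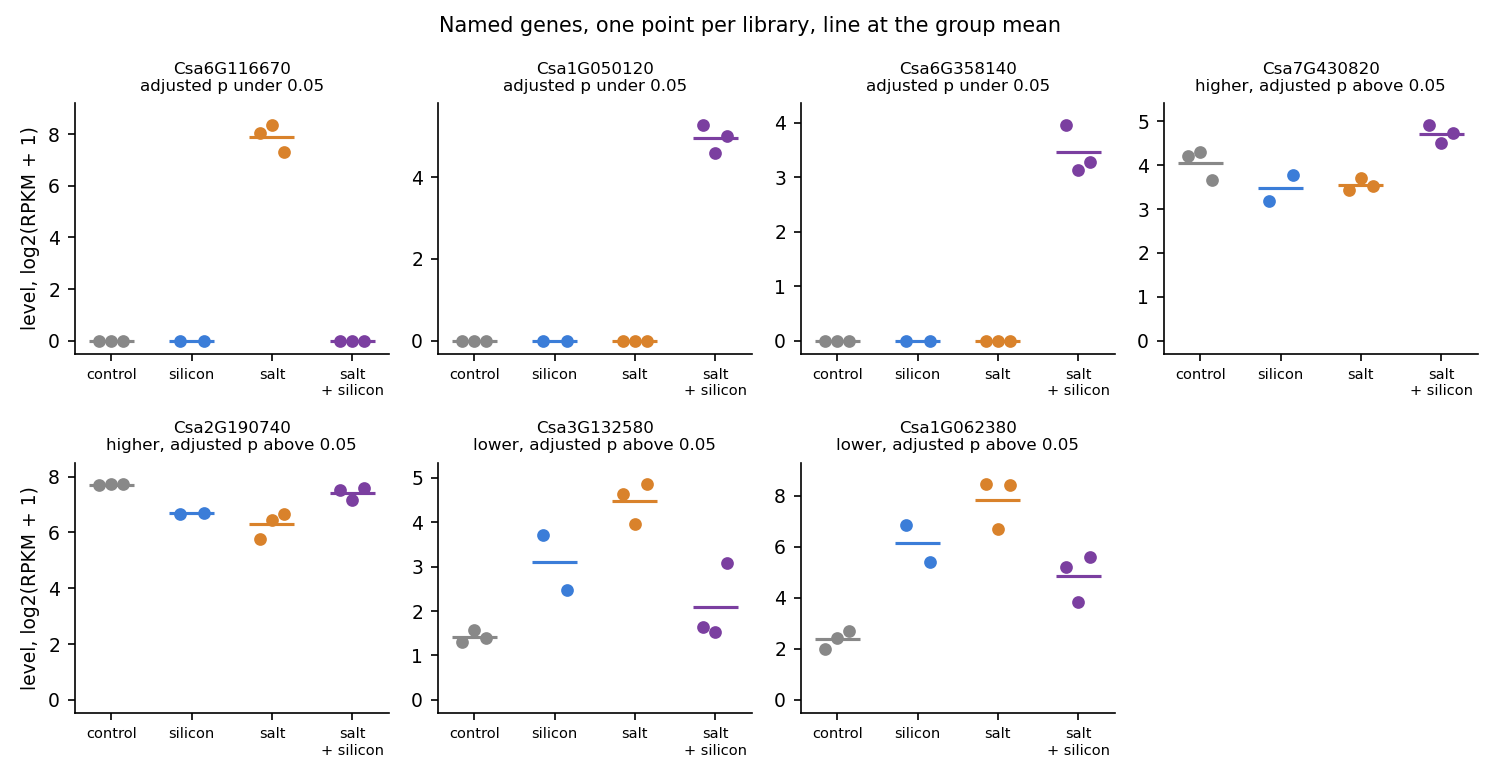
Level on the log2(RPKM + 1) scale in each library, with a line at the group mean, for the 3 genes past the threshold and for the 4 genes above 0 in all 6 libraries that the text names. The salt and the salt plus silicon points do not overlap in any panel, and the 3 genes past the threshold are at 0 in all libraries but those of 1 treatment.

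The 61 higher and 24 lower genes were chosen by the salt and salt plus silicon values, so only their levels in control and silicon leaves are independent of the choice. The median gene of the 61 was at 6.08 ± 1.47 RPKM in salt leaves, against 17.4 ± 3.08 where silicon was added (SD of the library medians, n = 3 each). In control it was at 12.2 ± 3.14 (n = 3) and in silicon at 19.6 ± 0.275 (n = 2). The median gene of the 24 was at 20.1 ± 2.66 RPKM in salt, 6.06 ± 0.607 in salt plus silicon, 6.69 ± 3.82 in control and 15.1 ± 5.25 in silicon. For both sets the control level was on the salt plus silicon side of the salt level. A set picked for extreme salt values has its salt level pushed away from that of every other group, and the comparisons share the salt libraries, so no test was made.

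The most abundant transcripts differed little. Csa5G609710, the highest of all, was at 58912, 69021 and 57814 RPKM in salt and at 74832, 65307 and 43958 in salt plus silicon. The groups overlapped fully, and the log2 change was -0.04 ± 0.28 (SE, limma adjusted p = 1.00, 95% interval -0.67 to 0.59), a sign that turned without salt 2 (0.04), without salt plus silicon 3 (0.18) and with library weights (0.08). Csa5G182730 was at 19199, 13072 and 19779 RPKM in salt and at 20674, 15659 and 20373 in salt plus silicon, again with overlap (log2 change 0.14 ± 0.26, SE, limma adjusted p = 1.00). Its sign turned without salt 2 (-0.06). Of the 100 genes with the highest mean over the 6 libraries, all at 1114 RPKM or more, 37 were higher and 63 lower by the means, none by 2-fold. Among all tested genes 55.9% were higher by the means. Their log2 changes ran from -0.66 to 0.81 with a median of -0.07, against 0.03 over all genes. In 4 of these 100 genes salt plus silicon lay above salt without overlap and in 4 below, where 3.93% and 2.46% of all genes did.

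How small a change the libraries could show depended on the level of the gene. For each gene limma gave a 95% interval of the log2 change. Folds here are of RPKM + 1, which understates changes of RPKM in low genes. The interval lay within 2-fold in both directions for 11654 of 16606 genes (70.2%) and within 1.5-fold for 4775 (28.8%). With a pseudocount of 0.1 it lay within 2-fold for 9864 of the same genes. In the lowest quartile of mean level, from 0.276 to 4.40 RPKM, 50.2% of 4152 genes had an interval within 2-fold. In the next it was 70.9%, and in the upper quartiles, from 12.6 RPKM upward, 79.9% and 79.7%. The interval of the median gene reached 1.70-fold either way in the lowest quartile and 1.42-fold in the highest. Genes that were 2-fold higher by the means made up 2.41% of the lowest quartile and 0.819% of the highest, and genes that were 2-fold lower 2.70% and 0.747%. Replicates also varied more at low levels, with a median SD within salt of 0.433 in the lowest and 0.253 in the highest quartile. For salt plus silicon it was 0.321 and 0.195.

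**Figure D4:**
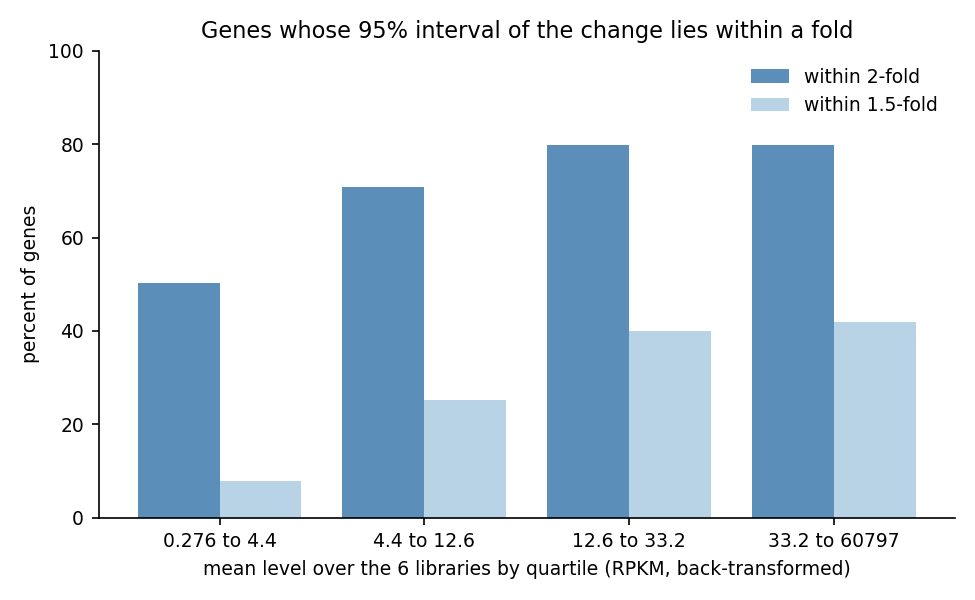
Share of genes whose 95% limma interval of the change, salt plus silicon against salt, lies within 2-fold or within 1.5-fold, by quartile of the mean level over the 6 libraries. Folds are of RPKM + 1, which understates changes of low genes. The share within 2-fold grows from 50.2% in the lowest to 79.7% in the highest quartile.

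Genes that responded to silicon in the absence of salt were then followed in salt-treated leaves. Silicon leaves differed from control in 1319 of the same 16606 genes (7.94%), 1176 higher (7.08%) and 143 lower (0.861%), by the same limma fit. That balance depended on scaling, at 782 higher and 303 lower with median-of-ratios factors and at 627 and 321 on quantile-normalized values. The higher list also depended on single libraries, shrinking to 22 genes when silicon 1 was dropped and to 411 for silicon 2. Dropping control 2 left 223, dropping control 3 left 419, and dropping control 1 gave 1945. This list comes from the control and silicon libraries and the values below from the salt and salt plus silicon libraries, which have no library in common, although the fit shares their spread. Calls favour genes of small shared spread, and the groups of such genes tend to overlap less in either direction. Shares without overlap can thus be partly built in. Between salt plus silicon and salt 0 of the 1319 passed the threshold, where 0.0181% of all genes did, so that count tells nothing about the list. The 1176 silicon-raised genes had a median log2 change of 1.54 between silicon and control, by which they were chosen. Under salt their median log2 change with silicon was -0.05, against 0.03 over all genes. Their median level was 13.6, 10.7 and 11.6 RPKM in salt 1 to 3 and 11.9, 11.4 and 12.1 in salt plus silicon 1 to 3, with the groups overlapping. In silicon leaves it was 35.8 and 31.5 RPKM, and in control leaves 12.8, 8.12 and 6.85. Of the 1176, 504 (42.9%) were higher with silicon under salt by the means, where 55.9% of all genes were. Salt plus silicon was above salt without overlap in 62 of them (5.27%, against 3.93% of all genes) and below in 71 (6.04%, against 2.46%).

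The 143 silicon-lowered genes were abundant ones, with a median of 89.6 ± 6.74 RPKM in control against 11.3 ± 1.44 over all tested genes (SD of the library medians, n = 3). By library their median level was 85.2, 97.4 and 86.3 RPKM in control, 36.0 and 54.8 in silicon, 49.5, 52.1 and 51.6 in salt, and 60.3, 54.1 and 57.8 in salt plus silicon. All salt plus silicon libraries were above all salt libraries, so the direction was opposite to that in unsalted leaves. The median log2 change under salt was 0.13, and 110 of the 143 (76.9%, against 55.9% of all genes) were higher by the means. In 21 of them (14.7%, against 3.93%) salt plus silicon lay above salt without overlap, and in 3 (2.10%, against 2.46%) below. The limit of the shared spread applies to these shares too. After median-of-ratios scaling 98 (68.5%) were higher, where 50.2% of all genes were, and after quantile normalization 97 (67.8%), where 49.2% were. This list depended on single libraries too. Without control 2 it held 6 genes, with a median change under salt of -0.45, and without silicon 1 it held none. Over all 16606 genes the change with silicon under salt and the change with silicon alone had a Pearson r of -0.10 and a Spearman rho of -0.21, a description across genes, which are not independent replicates and share their level and length. The change with silicon differed between salted and unsalted leaves, by the interaction term, in 183 of the 16606 genes (1.1%), a count that ran from 7 without silicon 1 to 1004 without control 1.

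**Figure D5:**
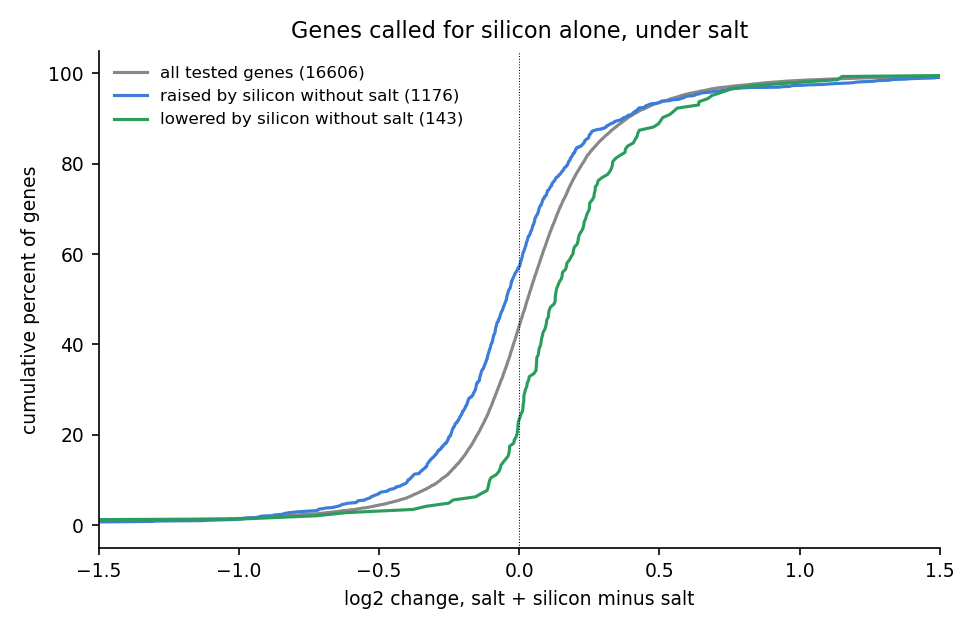
Cumulative share of genes by log2 change, salt plus silicon minus salt, for the 1176 genes raised and the 143 genes lowered by silicon without salt and for all 16606 tested genes. The curve of the silicon-raised genes crosses 50% at -0.05 and that of the silicon-lowered genes at 0.13, on either side of all genes at 0.03.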

How the data were processed

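Each library came as a table of RPKM per gene made by the authors, going by the names of the deposited tables, and TopHat2 was among their tools per the submitters' processing notes. For its settings, the read counter, the genome build and the gene models, the sources used here give nothing. Libraries were made without strand, per the labels' protocols, so reads of overlapping genes on opposite strands are not told apart. The files used here hold no counts, so depth is unknown and no counting interval was computed. For genes under 0.3 RPKM, the ratio of salt 1 to each of the other 5 salt and salt plus silicon libraries was taken. Its median was 0.842 to 1.10. Only ratios between 0.75 and 1.33 were kept, which hides larger differences and partly builds in a value near 1, so this is no measurement of depth. Nothing beyond the labels says how replicates were grown, so p-values measure the spread between these pooled samples.

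Values were used as deposited, as log2(RPKM + 1), which understates changes of low genes. The main model had 1 mean per group for all 11 libraries (limma 3.58.1, R 4.3.3, mean-variance trend), leaving 7 residual degrees of freedom (4 with 6 libraries). Exact permutation tests used scipy 1.17.1, tables pandas 2.3.3 in Python 3.11.15, and plots matplotlib 3.10.9. The fit was tested on simulated data with known changes. The alternatives were a fit of the 6 libraries, a pseudocount of 0.1, other filters, median-of-ratios and quantile scaling, a replicate block, robust moderation, library weights and leaving out each library. Genes and lists were chosen with earlier results of these data known. Named genes were all calls if 5 or fewer, then the 2 higher and 2 lower of smallest p without overlap, with a 2-fold difference and no 0 in the 6 libraries, and the 2 most abundant genes. Lists by product name were not used, since IDs did not pair with names.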

Additional observations from a re-analysis of the deposited data

Results flagged for a closer look

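For 7 of the named genes the change with silicon differed between salt-treated and unsalted leaves by the interaction term of the limma fit, which passed the test in 183 of all 16606 genes (1.1%). The adjusted p was 3.6e-05 for Csa6G116670, 0.000282 for Csa1G050120 and 0.01002 for Csa6G358140. Control and silicon leaves were at 0 for these 3 genes, so their interaction is the same difference by which they were chosen and adds nothing to it. The adjusted p was 0.0488 for Csa7G430820, 0.0297 for Csa2G190740, 0.0325 for Csa3G132580 and 0.0278 for Csa1G062380. These 4 were chosen for their difference between salt plus silicon and salt, which the interaction contains, so their values are partly built in. All 4 calls were lost without silicon 1, where the adjusted p ran from 0.111 to 0.246, and without control 2, where it ran from 0.0765 to 0.126. They were also all lost without control 3 (0.0559 to 0.0674), salt 1 (0.0556 to 0.117) or salt plus silicon 1 (0.0763 to 0.128). Some of the 4 were lost without silicon 2, salt 3, salt plus silicon 2 or salt plus silicon 3. All 4 passed without control 1 or salt 2. Without salt, Csa2G190740 was lower with silicon (log2 change -1.02 ± 0.25, SE, limma adjusted p = 0.0393), a call lost without silicon 1 (0.257), silicon 2 (0.112), control 2 (0.106), control 3 (0.0941) or any salt plus silicon library (0.0506 to 0.0626). Csa1G062380 was higher with silicon alone (3.77 ± 0.67, SE, limma adjusted p = 0.0146), a call lost without silicon 1 (0.167) or control 2 (0.0543). Each was opposite in sign to the change under salt. Groups of 3 libraries are too small for the test of single libraries that stand far from the rest.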

How the results depend on the processing

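The count of 3 genes was 2 to 4 under 13 of 21 alternatives and 11 with the 6 libraries fitted alone. With 1 library left out it ran from 3 to 12, with 12 when salt plus silicon 2 was dropped, 7 for salt plus silicon 1, 6 for salt plus silicon 3, 9 for either salt 2 or salt 3, and 5 for either salt 1 or control 2. Csa6G116670 and Csa1G050120 passed under all 21 alternatives. Every alternative started from the same listed zeros, so this cannot tell whether those zeros are failed estimates. Over the same 16606 genes, the number with an interval within 2-fold was 11654 and ran from 9864 with a pseudocount of 0.1 to 12094 with library weights. Filters changed the number tested, giving 9587 of 12935 genes at 5 RPKM and 13958 of 19527 without a filter. Genes without overlap numbered 808 and 1212 under those filters. Over the same 16606 genes there were 1060, or 1167 and 1189 under the other scalings. The 14 genes at 0 throughout 1 treatment became 47 when any value above 0 in the other was allowed, and 30 to 45 with 1 library left out. Both changes relax the rule, so this count could not fall. The median change of the silicon-raised genes ran from -0.10 to 0.04 and that of the silicon-lowered genes, with 1 library left out, from -0.45 (without control 2, a list of 6 genes) to 0.25. No silicon-lowered gene was left without silicon 1, so that value could not be computed. The difference in the share of the 100 highest genes was -0.864 percentage points, from -1.74 to 0.129 with 1 library left out, and turned to 0.125 without salt 3 and 0.129 without salt plus silicon 3. The log2 change of Csa5G609710 turned to 0.0827 with library weights and ran from -0.204 to 0.18 with 1 library left out, and that of Csa5G182730 ran from -0.0554 to 0.267. The cause was not tested.

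Whether replicate numbers pair the samples was not settled by the data. The deviations of same-numbered salt and salt plus silicon libraries correlated at 0.166, 0.11 and 0.086, not all above the threshold of 0.1. Differently numbered pairs of these groups were all lower, from -0.172 to 0.0514. For control and salt, the same-numbered pairs ran from -0.222 to 0.116. With a replicate block 3 genes passed, as without it, and the interaction passed in 15 genes in place of 183, among the 4 genes above 0 in all 6 libraries only in Csa1G062380 (adjusted p = 0.0105). With library weights 1070 genes had an unadjusted p under 0.05, and without salt 2 1102 did, against 479. Depth was not available as counts, so the precision of low genes rests on the replicates.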
